A study of Mus musculus with 7 samples.

Results

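The genes described here encode the machinery that couples G protein-coupled receptors to their effectors inside the cell: the heterotrimeric G protein subunits, the regulators of G protein signalling (RGS proteins) and the adenylyl cyclases. Members were picked by their symbols, as Gnb1 to Gnb5, every symbol made of Gng, Rgs or Adcy followed by a digit, and 12 alpha subunit genes (Gnas, Gnal, Gnai1, Gnai2, Gnai3, Gnao1, Gnaz, Gnaq, Gna11, Gna12, Gna13 and Gna14). This gave 60 of the 24062 gene symbols counted. The samples were neurons with green fluorescence in brain slices of ERα-ZsGreen mice (strain Esr1-ZsGreen, kept on a C57BL/6J background), a reporter line in which ZsGreen marks cells that express ERα. Per the study's methods, the neurons lay in the medial preoptic area (MPA) and the mice were young adult females. Each neuron was recorded in current clamp while the slice was warmed by 5 °C, and the contents of 2 neurons with a like response were drawn into the pipette and pooled as 1 sample. The temperature-responsive group (TR, n = 4 samples) held neurons whose firing rose past a cutoff on warming, and the non-responsive group (NR, n = 3 samples) held the others. All 7 samples were ZsGreen positive and had the same recording and warming. The labels do not say which mouse a neuron came from, so p-values measure the spread between these samples, which may be technical.

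An activated receptor makes a G protein alpha subunit exchange GDP for GTP, after which alpha parts from its beta-gamma dimer and both act on effectors. Gs and its relative Golf stimulate adenylyl cyclase, the Gi family inhibits it, and Gq acts through phospholipase C beta. RGS proteins speed GTP hydrolysis on alpha subunits, mostly of the Gi and Gq families, and so shorten the signal. In the preoptic area, which takes part in the control of body temperature, prostaglandin, monoamine and peptide receptors signal through these proteins.

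Library totals lay between 1914497 and 2814360 counts in TR and between 3309361 and 5125280 counts in NR samples, yet TR samples had more genes with a count (19852 to 21177 against 17818 to 19820). Neither measure overlapped between the groups (p = 0.0286 for each, exact permutation test over all 35 splits, two-sided, which is as low as 4 against 3 samples can reach), so depth and group cannot be told apart. The neuronal genes Gad1 and Slc17a6 had at least 1003 and 435 counts in every sample, whereas Esr1, the gene of ERα, had between 10 and 27. Ddx3y, a Y-linked gene, had between 684 and 1150 counts and Xist between 2 and 14 in each sample, which goes against the stated sex in all 7 samples. In the test described below, Ddx3y was also higher in TR (0.66 on the log2 scale, adjusted p = 0.000196, edgeR). Transcripts of other cells were present in every sample: the summed level of 5 marker genes each was at least 2533.5 CPM (each count as a share of its sample's total, on the usual CPM scale) for oligodendrocytes, at least 899.6 CPM for astrocytes and at least 257 CPM for microglia. A list of 5 general neuron genes summed to between 2330 and 2727 CPM, below the oligodendrocyte sum in each of the 7 samples. Past the threshold of the test below, 2 genes were higher in TR and 1 lower in the astrocyte list and likewise in the oligodendrocyte list, 1 higher and 2 lower in the list of 5 general neuron genes, and 1 higher (Gad1) in a list of 5 preoptic neuron genes. Vascular lists moved 1 way: 3 of 5 endothelial genes and 4 of 5 pericyte and smooth muscle genes were higher and 0 lower. The sum of each vascular list was higher in all TR than in all NR samples. Since the values come from whole samples, fewer contributing cells of a type and less RNA per cell cannot be told apart.

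TR and NR samples were compared with edgeR's quasi-likelihood test over the 14407 genes that reached 10 counts in 3 or more samples, with p-values adjusted over all of them by the Benjamini-Hochberg method. Differences are given on the log2 scale, TR minus NR, as the edgeR estimate ± its standard error. Of the 60 members, 56 were tested and 21 of these passed an adjusted p of 0.05, or 37.5%, against 30.0% of all genes tested. Among the 21, 13 were higher in TR (15.1% of all genes tested were) and 8 were lower (14.9% of all genes). The median difference was 0.037 over the tested members and 0.0071 over all genes tested. CPM did not overlap between the groups for 23 of the 56 members, against 35.9% of all genes tested. Of these 23 members 15 passed, and of the 5166 such genes among all tested 3702 passed. Thus 15 of the 21 members that passed did not overlap, against 85.6% of all genes that passed. The genes that passed took both directions within the inhibitory alpha subunits, the gamma subunits, the RGS proteins and the cyclases.

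**Figure D1:**
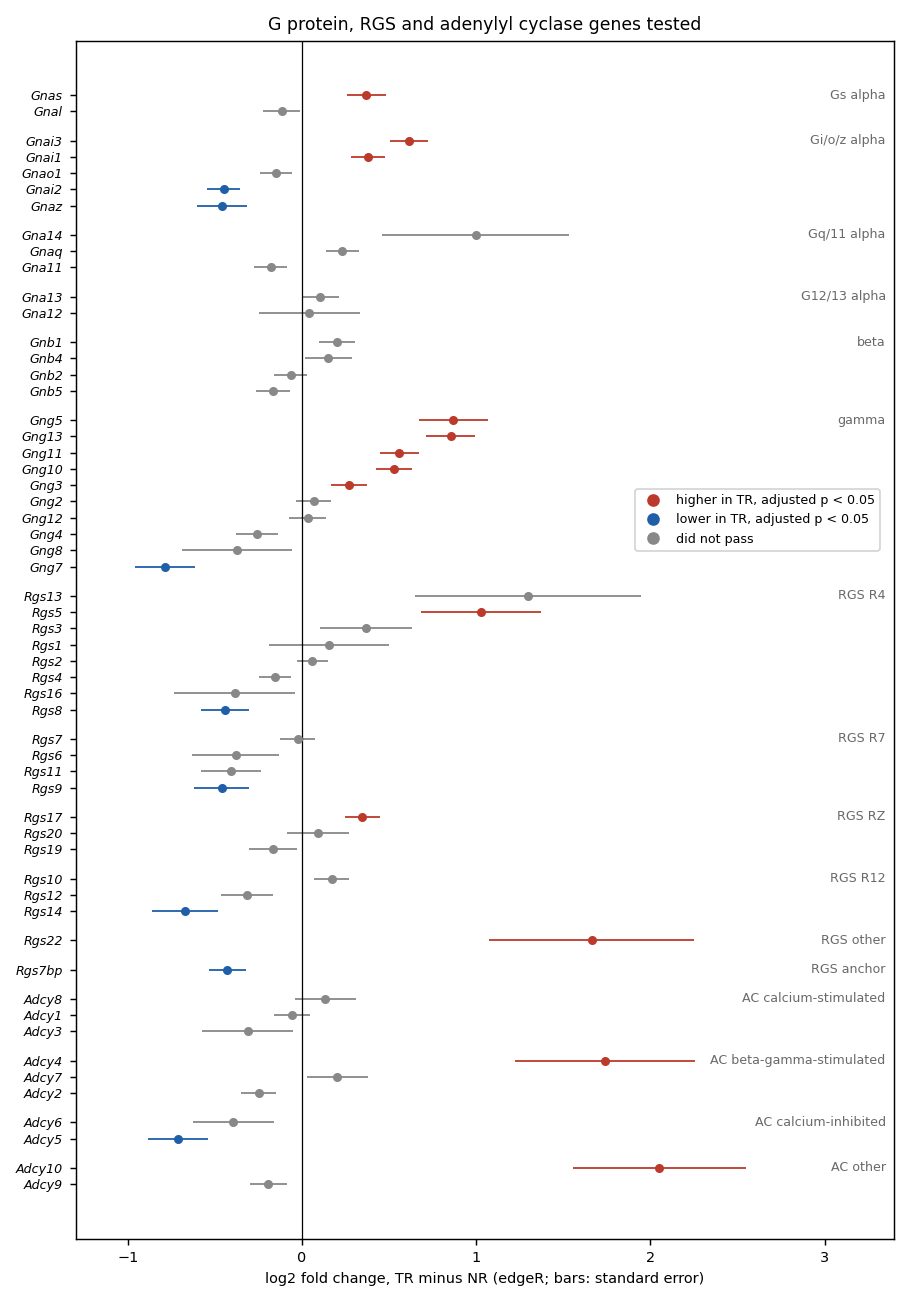
Difference between temperature-responsive (TR, n = 4) and non-responsive (NR, n = 3) samples on the log2 scale for the 56 members tested, grouped by protein class. Points are edgeR estimates, bars are standard errors, and colour gives the outcome of the test. The Gi/o/z alpha and the gamma subunits hold genes that passed on both sides of 0, while no Gq, G12/13 or beta subunit gene passed. Of all genes tested 30.0% passed, and these classes are small.

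How many members passed depended on the samples and on how base composition and length were treated. Without NR replicate 3 the count was 12 of 56, against 18.5% of all genes tested in that fit, and without NR replicate 2 it was 14, against 21.2%, so the share fell over all genes as well. In every one of the 7 fits that left out a sample, 11 of the 21 passed, a share not counted over all genes. Gng5, Gng10, Gng11, Gng13, Gnai1, Gnai3 and Adcy10 passed as higher, and Gng7, Gnai2, Adcy5 and Rgs7bp as lower. Of these, Adcy10 met the count minimum only through the TR samples (6, 6 and 8 counts in NR samples). It had too few counts to be tested with a minimum of 10 counts in every sample or after downsampling to the smallest total. After that downsampling 19 of 53 members passed (12 higher, 7 lower), against 27.4% of all genes tested in that fit. Of these, 18 were among the 21 with the same direction, while Rgs5 and Rgs9 did not pass. Equal totals leave the difference in genes detected in place. When the genes detected in each sample entered as a covariate, 0 members passed with edgeR, and 1 of all 14407 genes did. Of the members, 8 had an unadjusted p below 0.05, a share not counted over all genes. All 21 differences kept their sign. With DESeq2 and no covariate, 21 members passed, against 26.4% of all genes. The members that were higher had a median transcript GC content of 46.7%, those that were lower 53.3%, and those that did not pass 50.8%. Across the 56 tested members, which share the same 7 libraries, difference and GC content had a Spearman correlation of -0.418, and across all 14407 genes -0.342. An offset for GC content in each sample left 21 members past the threshold but split them into 9 higher and 12 lower (over all genes, 8.32% were then higher and 17.3% lower), and 17 of them were among the first 21 with the same direction. An offset for transcript length gave 10 higher and 15 lower (10.9% and 19.6% over all genes), with 18 of the first 21 among them.

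**Figure D2:**
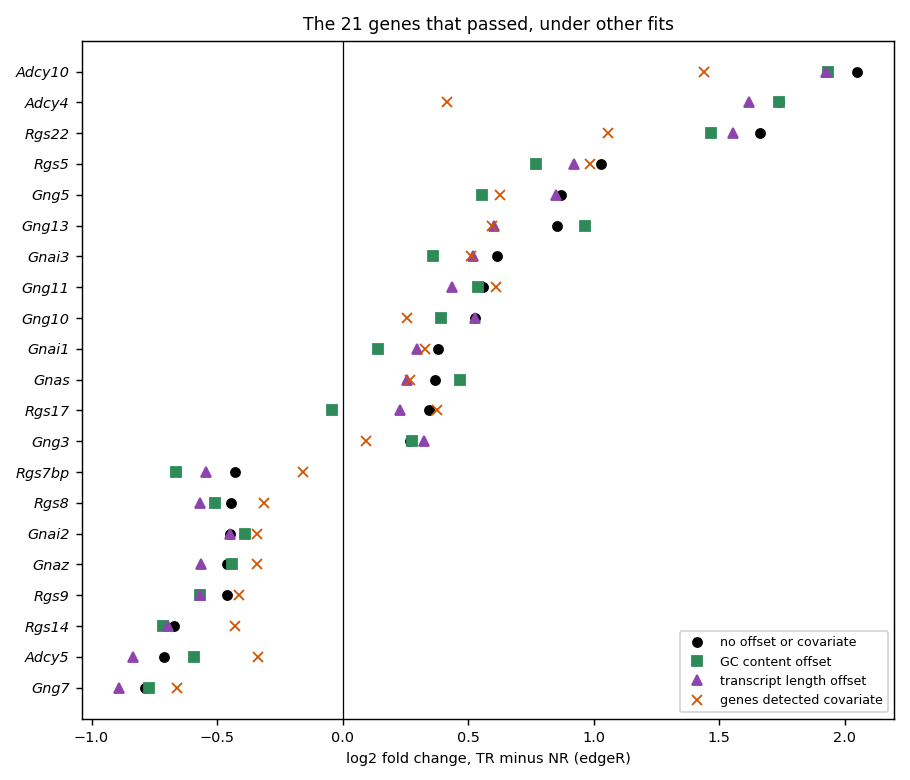
Difference between TR and NR samples (log2 scale, edgeR) for the 21 members that passed, in the fit without offset or covariate (black circles), with an offset for GC content (green squares) or transcript length (purple triangles), and with the genes detected as a covariate (orange crosses). Each gene keeps its side of 0 in the 4 fits except Rgs17, which lies at -0.043 with the GC content offset.

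The DNA before the starts of these genes was read from RefSeq (GRCm38.p6), where 45 of the 60 members had an entry. The cAMP response element, bound by CREB downstream of adenylyl cyclase, has the palindrome TGACGTCA, which was found in the 250 bases before a start for 0 of the 45 members and for 1.77% of 27025 genes. Its core TGACG, on either strand, was found for 12 of the 45 members (26.7%) and for 19.8% of all genes. Of the members with an entry, the core was found in 1 of 11 that were higher in TR, 3 of 5 that were lower and 7 of 28 that did not pass. The palindromic estrogen response element was found for 0 members and for 0.0666% of all genes. The 4 windows below are shown because they belong to the members that passed and hold the core, which is in capitals (CGTCA is the core on the other strand). Each is written 5′ to 3′ on the strand of its gene and ends at the base before an annotated start, and other starts of Gnas, Gng7 and Rgs8 are listed too. Of the 4 Gnas windows 3 hold the core, and the 1 shown does not share its bases with the other 2, which overlap each other. A match describes the letters only.
Gnas (higher), chr2:174329756-174330005, + strand: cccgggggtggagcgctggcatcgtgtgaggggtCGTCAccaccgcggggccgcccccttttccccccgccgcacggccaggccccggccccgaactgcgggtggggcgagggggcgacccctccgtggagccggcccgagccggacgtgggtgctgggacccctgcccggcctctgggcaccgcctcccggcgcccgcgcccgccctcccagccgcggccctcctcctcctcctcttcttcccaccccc
Gng7 (lower), chr10:81001366-81001615, - strand: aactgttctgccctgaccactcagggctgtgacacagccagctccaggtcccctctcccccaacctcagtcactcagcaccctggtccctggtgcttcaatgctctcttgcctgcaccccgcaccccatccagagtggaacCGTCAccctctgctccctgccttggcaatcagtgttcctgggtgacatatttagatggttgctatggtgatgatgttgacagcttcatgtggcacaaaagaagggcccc
Rgs7bp (lower), chr13:105054931-105055180, - strand: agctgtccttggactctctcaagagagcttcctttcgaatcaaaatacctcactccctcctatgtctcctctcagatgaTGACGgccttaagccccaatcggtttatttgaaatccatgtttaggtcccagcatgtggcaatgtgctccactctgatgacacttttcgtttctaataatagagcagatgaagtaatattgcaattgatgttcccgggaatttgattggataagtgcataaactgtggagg
Rgs8 (lower), chr1:153652787-153653036, + strand: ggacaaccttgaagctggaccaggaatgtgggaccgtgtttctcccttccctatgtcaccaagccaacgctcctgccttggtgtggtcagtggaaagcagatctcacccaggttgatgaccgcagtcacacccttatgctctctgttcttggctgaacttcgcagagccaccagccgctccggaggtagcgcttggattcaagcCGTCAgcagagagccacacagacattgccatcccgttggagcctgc
The core lay 212 bases before this start in Gnas, 167 in Rgs7bp, 105 in Gng7 and 42 in Rgs8. The Gnas window has a GC content of 80.0%, and that of Rgs7bp 43.2%.

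Of the stimulatory alpha subunits, Gnas was higher in TR and Gnal did not pass. Gnas, the gene of Gs alpha, lies at chr2:174284320-174346744 (mm10) and had the highest level of the alpha genes per length, at 152 CPM per kilobase of its longest transcript. It stood at 704, 737, 592 and 589.8 CPM in TR replicates 1 to 4 and at 592, 488 and 509 CPM in NR replicates 1 to 3. TR replicates 1 and 2 were above all others, and replicates 3 and 4 were level with NR replicate 1, so the groups overlapped (0.37 ± 0.114, adjusted p = 0.0163, edgeR). Gnas did not pass without TR replicate 2, without NR replicate 2, without NR replicate 3 or with the transcript length offset (0.26, adjusted p = 0.103, edgeR). Its symbol covers several imprinted transcripts with separate starts, and Nespas and Gm20721 overlap 22.0% of its exonic bases. Gnal, the gene of Golf, which couples dopamine and odorant receptors to cyclase, was at 188 ± 23.7 CPM (SD, n = 4) in TR and 213 ± 26.9 CPM (SD, n = 3) in NR samples (-0.12, adjusted p = 0.433, edgeR).

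The inhibitory family split. Gnai1 and Gnai3 were higher in TR, Gnai2 and Gnaz were lower, Gnao1 did not pass, and in CPM the groups did not overlap for any of the 5 genes, as for 35.9% of all genes tested. Their products lower cAMP on behalf of opioid, alpha-2 adrenergic, GABA-B and other receptors. Gnai3, a widely used Gi alpha subunit at chr3:108107280-108146146, had 106, 109, 123 and 116 CPM in TR and 78.3, 84.5 and 69.7 CPM in NR samples. Every TR sample was well above every NR sample (0.61 ± 0.108, adjusted p = 0.000358, edgeR), and the gene also passed with the GC content offset at a smaller size (0.36, adjusted p = 0.0181, edgeR).

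Gnai1, the Gi alpha subunit highest in these samples per length (116 CPM per kilobase), had 423, 414, 362 and 392 CPM in TR and 331, 321 and 306 CPM in NR samples. The lowest TR sample, replicate 3, was above the highest NR sample (0.38 ± 0.0982, adjusted p = 0.00579, edgeR). With the GC content offset Gnai1 did not pass (0.14, adjusted p = 0.283, edgeR).

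Gnai2, which is used in most tissues and strongly in immune cells, had 167, 165, 201 and 185 CPM in TR and 241, 258 and 269 CPM in NR samples. All TR samples were lower (-0.45 ± 0.0938, adjusted p = 0.00119, edgeR), and the difference was of like size with the GC content offset (-0.39, adjusted p = 0.00454, edgeR). The summed level of the 5 microglia genes was lower in TR as well, at 257, 291, 305 and 309 CPM against 320.0, 316 and 333 CPM, with 1 of the 5 higher and 1 lower past the threshold, and its part in Gnai2 was not tested.

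The count ratio of Gnai3 to Gnai2 within a sample does not depend on library scaling. It was not adjusted for GC content, which is 41.7% for Gnai3, 42.6% for Gnai1 and 56.7% for Gnai2. It was 0.633, 0.6603, 0.613 and 0.626 in TR and 0.324, 0.327 and 0.259 in NR samples. Thus it was near-constant among TR samples and lower in all NR samples. The ratio of Gnai1 to Gnai2 lay between 1.799 and 2.53 in TR and between 1.14 and 1.37 in NR samples. These pairs were picked after their values were seen and are given as a description.

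Gnaz, whose product inhibits cyclase but resists pertussis toxin, had 60.1, 42.3, 81.8 and 73.9 CPM in TR and 89.4, 98.5 and 92.3 CPM in NR samples. TR replicate 2 was the lowest and the TR samples were more spread than the NR samples (-0.46 ± 0.143, adjusted p = 0.0181, edgeR); the gene did not pass without TR replicate 2 or without NR replicate 2. Gnao1, the gene of Go, the most abundant G protein of brain membranes, had 326, 327, 327 and 347 CPM in TR and 386, 368 and 396 CPM in NR samples. All TR samples were below all NR samples by CPM, but the difference did not pass (-0.15 ± 0.0911, adjusted p = 0.226, edgeR) except with the transcript length offset (-0.27, adjusted p = 0.0468, edgeR).

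**Figure D3:**
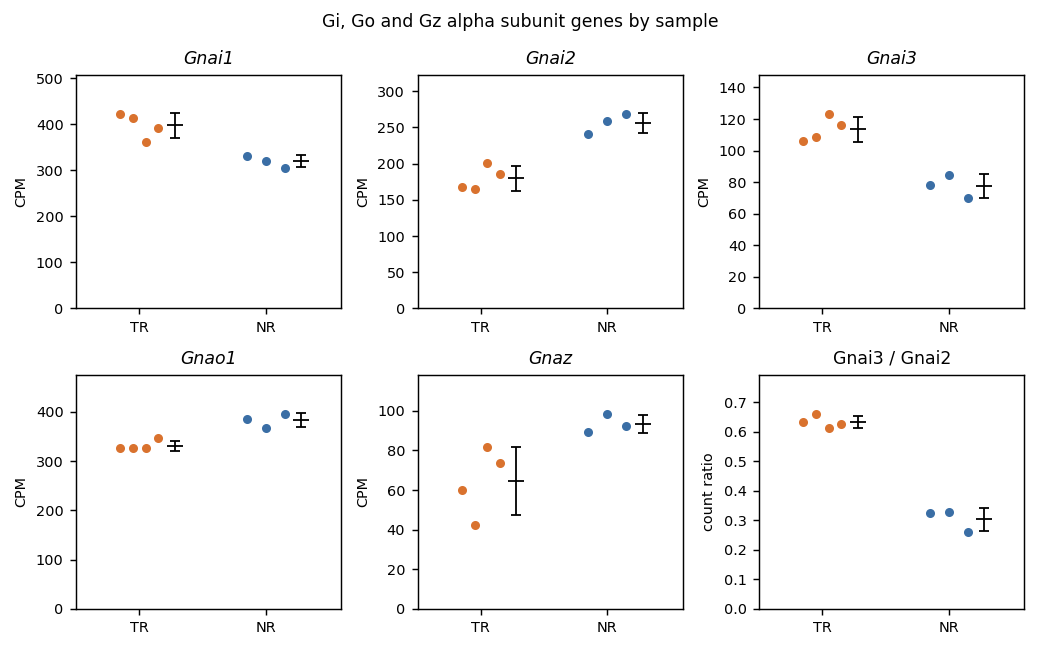
Level (CPM) of the 5 inhibitory alpha subunit genes and the count ratio of Gnai3 to Gnai2 in each TR (orange, n = 4) and NR (blue, n = 3) sample. Black marks are mean and SD, and the vertical axes start at 0. Gnai1 and Gnai3 are higher, and Gnai2, Gnao1 and Gnaz lower, in all TR than in all NR samples, and the ratio lies between 0.613 and 0.6603 in TR and between 0.259 and 0.327 in NR samples.

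None of the 5 genes of the Gq and G12 families passed, against 30.0% of all genes tested, so few were to be looked for in so small a set. Gnaq, the gene of Gq alpha, had 345, 382, 368 and 345 CPM in TR and 342, 319 and 298 CPM in NR samples. The groups did not overlap, but TR replicates 1 and 4 were close to NR replicate 1 (0.23 ± 0.0959, adjusted p = 0.0687, edgeR), and the gene passed with DESeq2 (0.24, adjusted p = 0.0409). Gnaq also passed with upper quartile scaling, with a minimum of 10 counts in every sample and after downsampling. So it did with a block for replicate number and without NR replicate 1. Gna11, a close relative of Gq, was at 167 ± 12.9 CPM (SD, n = 4) in TR and 197 ± 19.9 CPM (SD, n = 3) in NR samples (-0.18, adjusted p = 0.159, edgeR). With the transcript length offset Gna11 passed as lower (-0.28, adjusted p = 0.0476, edgeR). Gna14 had at most 15 counts in a sample and overlapping groups. Gna13, the gene of G13 alpha, was the higher of the G12 pair per length and had 110.0, 116, 112 and 98.1 CPM in TR and 111, 108 and 98.4 CPM in NR samples. The groups overlapped fully (0.11 ± 0.106, adjusted p = 0.478, edgeR). Gna12 had between 13 and 45 counts (0.042, adjusted p = 0.931, edgeR).

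The beta subunits, which form a tight dimer with gamma, had no member past the threshold among 4 tested, against 30.0% of all genes tested. Gnb2 and Gnb1 were the highest per length, at 125 and 119 CPM per kilobase. Gnb2 had 204, 215, 235 and 238 CPM in TR and 262, 227 and 241 CPM in NR samples. The groups overlapped (-0.065 ± 0.0943, adjusted p = 0.636, edgeR). Gnb1 was at 389 ± 22.4 CPM (SD, n = 4) in TR and 353 ± 36.7 CPM (SD, n = 3) in NR samples (0.20, adjusted p = 0.141, edgeR), and Gnb4 at 65.9 ± 11.7 CPM (SD, n = 4) in TR and 61.9 ± 7.77 CPM (SD, n = 3) in NR samples (0.15, adjusted p = 0.427, edgeR). Gnb5, the divergent beta subunit that pairs with R7 RGS proteins in place of gamma, was lower in all TR samples by CPM, at 123 to 149 CPM against 151 to 167 CPM, and did not pass (-0.17, adjusted p = 0.194, edgeR). Gnb3, known from cone photoreceptors, had between 2 and 11 counts and was not tested.

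The gamma subunits, small lipid-modified proteins that hold the dimer at the membrane, had 6 of 10 members past the threshold, against 30.0% of all genes tested. Gng3, Gng5, Gng10, Gng11 and Gng13 were higher in TR and Gng7 was lower. Summed over the 10 genes, gamma subunits lay between 1229 and 1348 CPM in TR and between 1058 and 1226 CPM in NR samples, while the 5 beta genes lay between 805 and 845 CPM in TR and between 772 and 871 CPM in NR samples. The gamma sums thus nearly touched without overlap, and the beta sums overlapped.

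Gng13, known from taste cells, olfactory neurons and retinal bipolar cells, lies at chr17:25717171-25719406 and had 100.2, 100.3, 97.8 and 87.1 CPM in TR and 71.01, 49.9 and 47.3 CPM in NR samples. NR replicate 1 was the nearest to the TR samples and still below them (0.85 ± 0.139, adjusted p = 0.000212, edgeR). The difference ranged from 0.74 to 1.06 when single samples were left out. Gng13 shares 51.6% of its exonic bases with Chtf18, so its counts are uncertain.

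Gng5, a widely used gamma subunit, had 27.4, 28.7, 30.8 and 25.2 CPM in TR and 19.6, 15.2 and 13.6 CPM in NR samples, from 55 to 85 counts. All TR samples were higher (0.87 ± 0.198, adjusted p = 0.00227, edgeR). Gng10 was the highest gamma gene per length, at 193 CPM per kilobase, and had 231, 298, 264 and 250.1 CPM in TR and 211, 184 and 171 CPM in NR samples. TR replicate 2 was the highest and all TR samples exceeded the NR samples (0.53 ± 0.105, adjusted p = 0.000854, edgeR), although 72.0% of the exonic bases of Gng10 are shared with Gm20503.

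Gng11, a farnesylated gamma subunit found in many tissues, had 209.8, 169, 175 and 155 CPM in TR and 136, 125 and 116 CPM in NR samples. TR replicate 1 was the highest of the 7 (0.56 ± 0.113, adjusted p = 0.000938, edgeR). The summed level of 5 endothelial genes was 132, 83.6, 275 and 76.04 CPM in TR and 48.95, 54.6 and 17.9 CPM in NR samples, with 3 of 5 genes higher past the threshold, and was highest in TR replicate 3; its part in Gng11 was not tested. Gng3, a neuronal gamma subunit, had 273, 267, 281 and 282 CPM in TR and 277, 220.5 and 219.7 CPM in NR samples. NR replicate 1 lay among the TR samples (0.27 ± 0.101, adjusted p = 0.0458, edgeR), and of the 7 fits that left out a sample Gng3 passed in 1, the one without NR replicate 1. Nor did Gng3 pass when scaled by library size only or when all genes with at least 1 count were kept.

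Gng7, a partner of Golf in striatal neurons, lies at chr10:80948624-81014945 and had 19.9, 16.7, 28.6 and 24.2 CPM in TR and 37.8, 43.1 and 40.9 CPM in NR samples. Every TR sample was below every NR sample, and the difference was the most negative of the 56 members tested (-0.79 ± 0.173, adjusted p = 0.001800, edgeR). It was of like size with the GC content offset (-0.77, adjusted p = 0.00232, edgeR) and the transcript length offset (-0.89, adjusted p = 0.0006201, edgeR). The count ratio of Gng13 to Gng7 lay between 3.42 and 6.0 in TR and between 1.16 and 1.88 in NR samples, a pair picked after its values were seen.

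The other gamma genes did not pass. Gng4 was at 79.4 ± 15.02 CPM (SD, n = 4) in TR and 99.4 ± 7.21 CPM (SD, n = 3) in NR samples (-0.26, adjusted p = 0.113, edgeR), and it passed with the GC content offset (-0.33, adjusted p = 0.04501, edgeR). Gng8 was lower in all TR samples by CPM on 10 to 44 counts (-0.37, adjusted p = 0.394, edgeR). Gng2, a major gamma subunit of brain, was at 253 ± 33.9 CPM (SD, n = 4) in TR and 252 ± 16.4 CPM (SD, n = 3) in NR samples, and Gng12 at 101 ± 12.4 CPM (SD, n = 4) in TR and 103 ± 1.19 CPM (SD, n = 3) in NR samples. The sign of the difference for Gng2 and Gng12 changed with the GC content and transcript length offsets, among other settings.

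**Figure D4:**
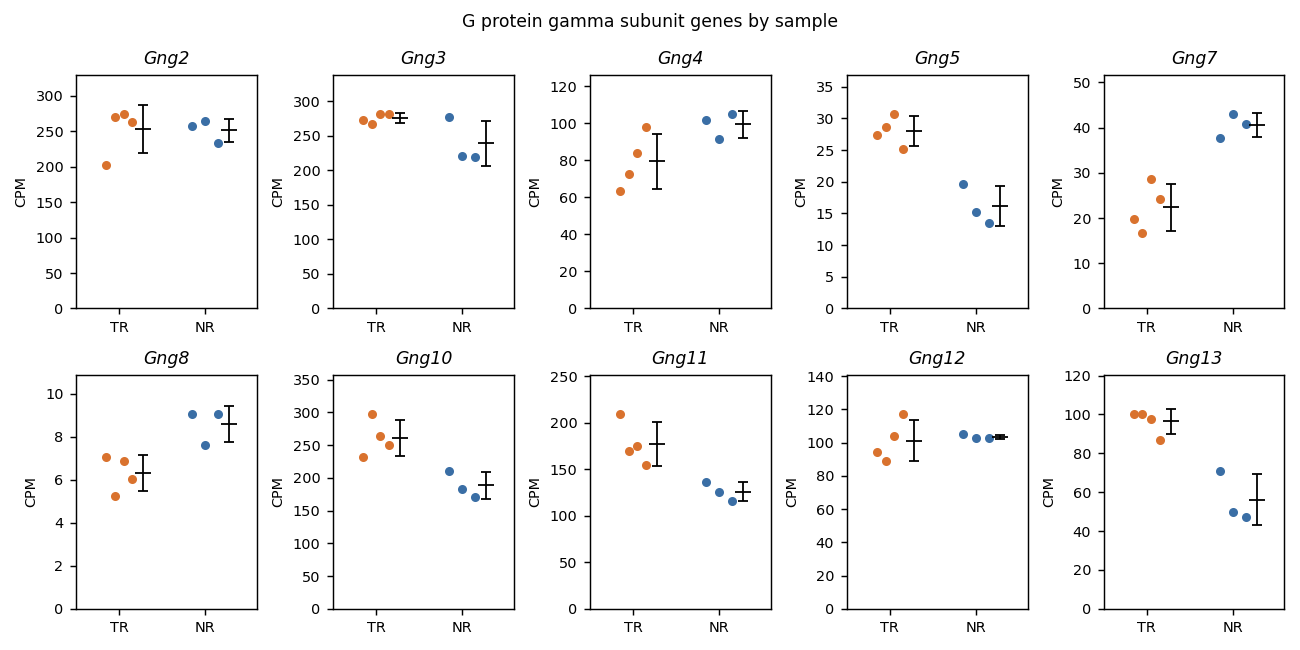
Level (CPM) of the 10 gamma subunit genes in each TR (orange, n = 4) and NR (blue, n = 3) sample. Black marks are mean and SD, and the vertical axes start at 0. Gng5, Gng10, Gng11 and Gng13 are higher, and Gng7 and Gng8 lower, in all TR than in all NR samples, while NR replicate 1 overlaps the TR samples for Gng3.

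Of the 21 RGS genes, 19 were tested, and 3 were higher and 3 lower in TR (15.1% and 14.9% over all genes). In the R4 family, small RGS proteins for Gi and Gq, Rgs8 was lower and Rgs5 higher among 8 tested. Rgs8, a neuronal protein that speeds the gating of G protein-coupled potassium channels, had 41.5, 48.1, 39.8 and 41.2 CPM in TR and 53.8, 60.7 and 65.8 CPM in NR samples. All TR samples were lower (-0.44 ± 0.137, adjusted p = 0.0169, edgeR), and Rgs8 did not pass without TR replicate 3, TR replicate 4, NR replicate 2 or NR replicate 3. Nor did Rgs8 pass with a block for replicate number. Rgs4, the R4 gene highest per length, had 204, 186, 225 and 231 CPM in TR and 236, 254 and 248 CPM in NR samples. The groups did not overlap but the difference did not pass (-0.15 ± 0.0934, adjusted p = 0.217, edgeR), while it passed with the GC content offset (-0.35, adjusted p = 0.00998, edgeR).

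Rgs5, which marks pericytes, had 23.8, 14.1, 36.2 and 12.4 CPM in TR and 16.9, 9.56 and 7.81 CPM in NR samples. TR replicates 1 and 3 were high, and TR replicates 2 and 4 lay below NR replicate 1 (1.03 ± 0.343, adjusted p = 0.0313, edgeR). Rgs5 did not pass without TR replicate 1, TR replicate 3, NR replicate 2 or NR replicate 3, nor with either offset or after downsampling. The summed level of 5 other pericyte and smooth muscle genes was 117, 83.6, 211 and 87.8 CPM in TR and 56.2, 56.8 and 52.8 CPM in NR samples, highest in the same TR replicates 3 and 1, with 4 of 5 genes higher past the threshold, and its part in Rgs5 was not tested. Rgs2, a regulator of Gq, was at 206 ± 14.1 CPM (SD, n = 4) in TR and 206 ± 6.89 CPM (SD, n = 3) in NR samples (0.060, adjusted p = 0.654, edgeR). Rgs1, Rgs3, Rgs13 and Rgs16 had at most 52 counts in any sample, and none passed.

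In the R7 family, whose proteins work in complex with Gnb5, Rgs9 was lower and 3 genes did not pass. Rgs9, known for its part in dopamine and opioid signalling in striatum, had 23.4, 27.2, 31.5 and 31.6 CPM in TR and 38.1, 40.6 and 43.98 CPM in NR samples. The groups did not overlap (-0.46 ± 0.156, adjusted p = 0.0279, edgeR), and Rgs9 did not pass with DESeq2 (-0.45, adjusted p = 0.05502) or without TR replicate 1, TR replicate 2, NR replicate 2 or NR replicate 3. Nor did Rgs9 pass with upper quartile scaling or after downsampling. Rgs7, the R7 gene highest per length, had 114, 108, 126 and 119.7 CPM in TR and 119.7, 137 and 116 CPM in NR samples. The groups overlapped (-0.025 ± 0.1004, adjusted p = 0.874, edgeR), while with the GC content offset Rgs7 was lower (-0.41, adjusted p = 0.00615, edgeR). Rgs6 and Rgs11 were at -0.38 and -0.41 on the log2 scale and did not pass, though Rgs11 did with the transcript length offset (-0.46, adjusted p = 0.0421, edgeR).

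Rgs7bp, which anchors R7 complexes at the plasma membrane, lies at chr13:104945904-105054930 and had 179.7, 126, 163 and 143 CPM in TR and 204, 221 and 220.3 CPM in NR samples. TR replicate 1 was the nearest to the NR samples and all TR samples were lower (-0.43 ± 0.108, adjusted p = 0.00462, edgeR). The size grew with the GC content offset (-0.66, adjusted p = 0.000255, edgeR). The other anchor, Rgs9bp, had between 2 and 10 counts and was not tested.

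In the RZ family, which acts on Gz and Gi, Rgs17 was the highest gene per length and had 448, 405, 391 and 381 CPM in TR and 351, 323 and 327 CPM in NR samples. All TR samples were higher (0.35 ± 0.0997, adjusted p = 0.0112, edgeR), but at a transcript GC content of 36.9% the sign turned with the GC content offset (-0.043, adjusted p = 0.778, edgeR). Rgs17 also did not pass without NR replicate 2 or NR replicate 3, or with the transcript length offset (0.23, adjusted p = 0.121, edgeR). Rgs19 and Rgs20 did not pass. In the R12 family, Rgs14, a Gi-binding protein known from hippocampal area CA2, had 18.1, 26.1, 33.7 and 35.5 CPM in TR and 38.98, 42.7 and 60.2 CPM in NR samples. TR replicate 1 was the lowest and NR replicate 3 the highest (-0.67 ± 0.189, adjusted p = 0.00983, edgeR), and without NR replicate 3 Rgs14 did not pass (-0.46, adjusted p = 0.102, edgeR).

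Rgs10, which is used by microglia and neurons, was the highest RGS gene per length at 164 CPM per kilobase and had 161, 143, 148 and 144 CPM in TR and 142, 148 and 125 CPM in NR samples. The groups overlapped (0.17 ± 0.1003, adjusted p = 0.203, edgeR). Rgs12 was at 37.9 ± 5.17 CPM (SD, n = 4) in TR and 49.3 ± 6.11 CPM (SD, n = 3) in NR samples (-0.32, adjusted p = 0.107, edgeR). With the transcript length offset Rgs12 passed as lower (-0.44, adjusted p = 0.0322, edgeR). Rgs22, a large RGS protein best known from testis, passed on 17, 11, 10 and 22 counts in TR and 14, 1 and 10 counts in NR samples. The groups overlapped in CPM and NR replicate 2 was far below the rest (1.66 ± 0.587, adjusted p = 0.0349, edgeR), and Rgs22 did not pass in 5 of the 7 fits that left out a sample. Nor did Rgs22 pass with the GC content offset (1.47, adjusted p = 0.0592, edgeR) or with a block for replicate number.

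**Figure D5:**
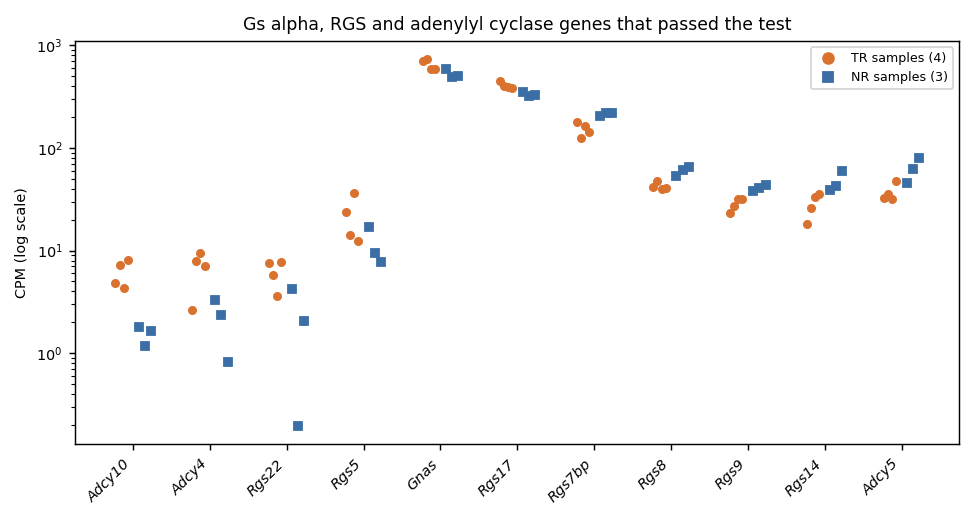
CPM on a log scale of the Gs alpha, RGS and adenylyl cyclase genes that passed, in each TR (orange circles, n = 4) and NR (blue squares, n = 3) sample. Adcy10, Adcy4 and Rgs22 lie under 10 CPM in all 7 samples, and Adcy10, Rgs17, Rgs7bp, Rgs8, Rgs9 and Rgs14 do not overlap between the groups.

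Adenylyl cyclases make cAMP, and their isoforms differ in how calcium and beta-gamma act on them. Of 10 tested, Adcy4 and Adcy10 were higher and Adcy5 was lower in TR, and 30.0% of all genes passed. Adcy5, a calcium-inhibited isoform and the main cyclase of striatum, lies at chr16:35154877-35305738 and had 32.7, 35.5, 31.9 and 47.6 CPM in TR and 45.9, 61.9 and 80.6 CPM in NR samples. TR replicate 4 lay just above NR replicate 1, and NR replicate 3 was the highest (-0.71 ± 0.172, adjusted p = 0.00366, edgeR). Leaving out single samples moved the difference between -0.87 and -0.49, and it passed each time.

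A list of striatal neuron genes, of which 4 of 5 were found, summed to 155, 193, 167 and 192 CPM in TR and 180.1, 198 and 202 CPM in NR samples. The groups overlapped, and of the 3 tested 1 was lower (Ppp1r1b) and none higher. Its part in Adcy5, Gng7 and Rgs9 was not tested.

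The other cyclases with more than a few counts did not pass. Adcy2, which beta-gamma dimers stimulate, was the highest cyclase per length at 26.9 CPM per kilobase and had 95.4, 92.97, 108 and 114 CPM in TR and 123, 127 and 133 CPM in NR samples. All TR samples were below the NR samples (-0.25 ± 0.101, adjusted p = 0.0633, edgeR), and Adcy2 passed with the GC content offset (-0.28, adjusted p = 0.0489, edgeR). Adcy9, a widely used isoform, had 94.5, 98.7, 112 and 129.7 CPM in TR and 119, 125 and 144 CPM in NR samples. Adcy1, the calcium-stimulated isoform highest per length, had 182, 215, 247 and 211 CPM in TR and 259, 211 and 226 CPM in NR samples. Both genes overlapped between groups (-0.19 ± 0.109, adjusted p = 0.186, edgeR for Adcy9 and -0.058 ± 0.104, adjusted p = 0.707, edgeR for Adcy1). With the transcript length offset Adcy9 passed as lower (-0.32, adjusted p = 0.0372, edgeR). Adcy3, Adcy6, Adcy7 and Adcy8 lay between -0.39 and 0.20 on the log2 scale and did not pass.

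Both cyclases that were higher had few counts. Adcy10, the soluble cyclase that bicarbonate activates, had 11, 14, 12 and 23 counts in TR and 6, 6 and 8 counts in NR samples, or 4.35 to 8.17 CPM against 1.17 to 1.81 CPM. The groups did not overlap in CPM (2.05 ± 0.498, adjusted p = 0.00363, edgeR). However, the gene met the count minimum only through the TR samples. It had too few counts to be tested after all samples were drawn down to the smallest total. For scale, 3 counts correspond to between 0.585 and 1.57 CPM.

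Adcy4, an isoform of endothelial cells among others, had 6, 15, 26 and 20 counts in TR and 11, 12 and 4 counts in NR samples. TR replicate 1, at 2.65 CPM, fell within the NR range of 0.822 to 3.32 CPM, and the other TR samples lay above it (1.74 ± 0.515, adjusted p = 0.0131, edgeR). Adcy4 did not pass without NR replicate 3. The endothelial sum given with Gng11 was higher in all TR samples, and its part in Adcy4 was not tested.

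Rgs18 and Rgs21 had 0 counts in all 3 NR samples, and at most 4 and 3 counts in a TR sample, and were not tested. A count of 0 allows up to 0.585 to 0.907 CPM in these NR samples, which covers counting error only.

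The wider pathway was followed with a list of receptor kinases, arrestins, cAMP phosphodiesterases, protein kinase A subunits and inhibitors, Epac, phospholipase C beta, exchange factors that G12 and G13 activate, chaperones and the remaining alpha and gamma subunits. Of 54 genes found, 47 were tested and 13 passed (27.7%, against 30.0% of all genes tested), 5 higher and 8 lower in TR, and none of the 13 overlapped between groups, as was so for 85.6% of all genes that passed. Without NR replicate 3, 8 of them passed, against 18.5% of all genes tested in that fit. Pdcl, a co-chaperone in the assembly of beta-gamma dimers, was at 97.6 ± 9.17 CPM (SD, n = 4) in TR and 50.95 ± 3.902 CPM (SD, n = 3) in NR samples (0.99 ± 0.125, adjusted p = 4.69e-05, edgeR). Pkia, an inhibitor of protein kinase A, was at 388 ± 36.04 CPM (SD, n = 4) in TR and 265 ± 10.1 CPM (SD, n = 3) in NR samples (0.61 ± 0.0995, adjusted p = 0.000213, edgeR). Rapgef4, the cAMP-activated exchange factor Epac2, was at 557 ± 68.1 CPM (SD, n = 4) in TR and 429 ± 29.6 CPM (SD, n = 3) in NR samples (0.44 ± 0.108, adjusted p = 0.00408, edgeR). Also higher were Gpr179, which anchors R7 RGS proteins in retina (1.36, adjusted p = 0.00457, edgeR, on 18 to 46 counts), and Plcb2, a phospholipase C beta (0.99, adjusted p = 0.0328, edgeR). Plcb2 did not pass without TR replicate 2, TR replicate 4, NR replicate 2 or NR replicate 3, nor with the transcript length offset or a block for replicate number.

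On the lower side of this list, Pde2a, a phosphodiesterase that cGMP stimulates, was at 123 ± 31.2 CPM (SD, n = 4) in TR and 203 ± 34.9 CPM (SD, n = 3) in NR samples (-0.66 ± 0.148, adjusted p = 0.00336, edgeR). It was the 1 of 13 phosphodiesterases tested that passed, against 30.0% of all genes tested. Plcb4, a phospholipase C that Gq activates, was at 17.8 ± 3.68 CPM (SD, n = 4) in TR and 33.6 ± 4.73 CPM (SD, n = 3) in NR samples (-0.85 ± 0.189, adjusted p = 0.00197, edgeR). Prkar2a, a regulatory subunit of protein kinase A, was at 50.9 ± 7.83 CPM (SD, n = 4) in TR and 76.8 ± 5.54 CPM (SD, n = 3) in NR samples (-0.53 ± 0.131, adjusted p = 0.003899, edgeR). Arrb2, an arrestin that uncouples receptors from G proteins, also fell (-0.59, adjusted p = 0.00915, edgeR), as did Arhgef1, an exchange factor that G13 activates (-0.48, adjusted p = 0.0278, edgeR). Arhgef1 had 64.4, 56.0 and 99.1 CPM in NR samples, so NR replicate 3 stood above the others, and without it the gene did not pass (-0.19, adjusted p = 0.374, edgeR). It also did not pass without TR replicate 1, TR replicate 2 or TR replicate 4, with the GC content offset, upper quartile scaling or limma-voom, or after downsampling. Both arrestins tested passed as lower, and of 5 receptor kinases 1 passed, also lower, where 14.9% of all genes tested were lower. However, Arrb1 and the kinase (Adrbk1) did not pass without NR replicate 3. Adrbk1 also did not pass without TR replicate 2, with the GC content offset or with upper quartile scaling.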

How the data were processed

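RNA from 7 samples of 2 pooled neurons each was made into cDNA with SMART-seq V4 chemistry and sequenced. Per the labels and methods, the authors aligned reads to mm10 with STAR 2.6.0, removed duplicates, counted reads per gene symbol with htseq-count 0.9.1 and deposited the raw counts without normalization. As the reads carry no molecular identifiers, this step may also have discarded true copies of abundant genes. The annotation, strand setting and treatment of overlapping genes are not given in the sources used here, so genes with shared exons are uncertain.

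Samples were grouped by their titles. The 60 members, their role classes and the other lists were chosen with earlier results of these data known. The 14407 genes reaching 10 counts in 3 or more samples were fitted in edgeR 4.0.16 (R 4.3.3; TMM, robust quasi-likelihood, two-sided, threshold 0.05). The fit was also run on simulated data that held no trend with GC content and no excess of genes detected in TR. That run cannot speak to either feature of the real samples. Standard errors came from the estimate and its F statistic. CPM used deposited totals without TMM factors. GENCODE M21 gave positions, lengths and GC content (the same build, all 60 members matched; 98.5% of all symbols). Values in every sample are given for members past the threshold without overlap and for the member of each class highest per kilobase of its longest transcript, plus other members past the threshold, which were added with their values seen; among pathway partners, the 5 largest changes past the threshold in each direction are named. Samples that share a number hold different neurons and did not deviate together (correlations -0.128, -0.062 and 0.032), so replicate number was not a block. Alternatives were DESeq2 1.42.0, limma-voom (limma 3.58.1), other scalings and filters, downsampling (1 draw), genes detected as a covariate, offsets for GC content and length (mgcv 1.9.3), a replicate block and leaving out each sample. Floors of 3 counts cover counting error only.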

Additional observations from a re-analysis of the deposited data

Results flagged for a closer look

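Within the 4 TR samples, 1 sample stood far from the other 3 for 3 of the 60 members, where chance alone gives about 1 in 20. Gnal was at 152.5 CPM in TR replicate 2 and between 196.8 and 202.3 CPM in the others, and the gap was 0.891 of the whole range. Gnao1 was at 346.8 CPM in TR replicate 4 and between 326.3 and 327.0 CPM in the others, a gap of 0.969 of the range. Gng2 was at 202.7 CPM in TR replicate 1 and between 263.6 and 275.2 CPM in the others, a gap of 0.840 of the range. None of these genes passed the test between the groups with all samples.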

How the results depend on the processing

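Of the 21 members, 11 passed in every fit that left out 1 sample, and 10 of these (all but Gnai1) also with each offset. Both counts include Adcy10, which met the count minimum only through TR samples, and neither was counted over all genes. Gnai1, Gnai3 and Gng5 did not pass with the replicate block and GC offset together. Leaving out single samples gave 12 to 23 members (7 to 15 higher, 5 to 9 lower) and 8 to 16 pathway partners (4 to 6 higher, 4 to 10 lower). Over all genes tested, 18.5% to 32.2% passed in these fits. With genes detected as a covariate, 0 members (0 higher, 0 lower; 8 at an unadjusted p under 0.05) and 0 partners (0 higher, 0 lower; 4 unadjusted) passed by edgeR, and 1 of all 14407 genes. DESeq2 and limma-voom gave 21 members each, against 26.4% and 30.6% of all genes. Members lower numbered 14 when all genes with at least 1 count were kept and 15 with the length offset, and members higher 8 with the replicate block and GC offset. Over all genes the shares in these directions were 13.3%, 19.6% and 7.45%. Partners lower numbered 5 with upper quartile scaling and 13 when all genes with at least 1 count were kept (11.2% and 13.3% over all genes). The replicate block alone gave 23 members, 19 of them shared with the 21 in direction, and 28.6% of all genes passed with it. The TR minus NR difference in totals lay between -2556684 and -1648725, and that in genes detected between 1296.5 and 2297.5, when single samples were left out. The causes were not tested. Members under about 25 counts (Adcy4, Adcy10 and Rgs22 among those called) are limited by depth.

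The sign of these log2 differences changed, and only Rgs17 among them had passed. With the GC offset: Gna13 -0.037, Gnb2 0.075, Gnb4 -0.019, Gng12 -0.20, Gng2 -0.14, Rgs1 -0.26, Rgs17 -0.043, Rgs2 -0.15 and Rgs20 -0.026. With the replicate block and GC offset: Gnb2 0.099, Gnb4 -0.13, Gng12 -0.28, Gng2 -0.16, Rgs1 -0.23, Rgs17 -0.025, Rgs2 -0.19 and Rgs20 -0.12. With the replicate block: Gna12 -0.0069, Gng12 -0.037 and Rgs20 -0.010. With the length offset: Gna12 -0.058, Gna13 -0.012, Gng12 -0.090, Gng2 -0.049 and Rgs2 -0.018. With all genes of at least 1 count: Gna12 -0.046, Gng12 -0.060, Gng2 -0.026, Rgs2 -0.032 and Rgs20 -0.0021. With the covariate: Gna11 0.030, Gna12 -0.0035, Gna14 -0.46, Gnal 0.014, Gng12 -0.024, Gng2 -0.16, Rgs19 0.010 and Rgs20 -0.25. With library size only: Gna12 -0.0069 and Gng12 -0.018. With upper quartile scaling: Adcy1 0.0085, Gnb2 0.0017 and Rgs7 0.041. With downsampling: Rgs7 0.0092. Leaving out single samples gave Adcy1 -0.13 to 0.039, Adcy6 -0.59 to 0.0075, Adcy8 -0.027 to 0.29, Gna12 -0.096 to 0.17, Gnb2 -0.12 to 0.0028, Gng12 -0.027 to 0.085, Rgs20 -0.0028 to 0.17 and Rgs7 -0.077 to 0.046.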

Other observations

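Within each sample, the make-up of the alpha and gamma subunit pools was described as the share of each gene in the pool's summed CPM per kilobase. Gnas made up 22.95% to 28.27% of the alpha pool in TR samples and 19.29% to 22.99% in NR samples, so the groups overlapped slightly. Gnai2 made up 11.25% to 13.92% in TR and 16.70% to 19.07% in NR samples, and Gnai1 17.68% to 20.39% in TR and 15.31% to 16.20% in NR samples. In the gamma pool, Gng10, Gng11 and Gng3 were the largest in all 7 samples, and Gng7 made up 0.558% to 0.957% in TR and 1.48% to 1.95% in NR samples. Gng13 made up 14.71% to 16.44% in TR and 10.70% to 13.24% in NR samples. These shares are descriptions with no test, and they rest on the longest annotated transcript of each gene. Gng10, Gng13, Gng3, Gnas and Gng2 share 72.0%, 51.6%, 24.2%, 22.0% and 20.4% of their exonic bases with other genes, so their shares of the pools are uncertain.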
